A study of Mus musculus with 18 samples.

Results

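The collagen genes were taken as every row whose gene name consists of Col, a number, the letter a and a further number, with nothing after it. This gave 44 of the 55401 genes of the tables: 6 genes of type 4 (*Col4a1* to *Col4a6*), 11 fibrillar genes and 27 genes of other types. The RNA came from dissected thick ascending limbs of adult male mice, in 18 pools (the strain label is C57BL/6J, and the study's methods give a background that is mostly C57BL/6): 5 pools of WT CTAL, 5 of cKO CTAL, 5 of WT MTAL and 3 of cKO MTAL. CTAL is the limb in the cortex and MTAL the limb in the inner stripe of the outer medulla. All mice carried *Cldn10* fl/fl; the cKO mice also carried Ksp-Cre, a recombinase driven by the Ksp-cadherin promoter in the distal nephron, and their WT littermates did not. Each pool held 150 to 200 pieces of tubule dissected from a kidney treated with liberase, and each came from a different mouse. The study reports that nephrocalcinosis, calcium deposits in the kidney, made cKO MTAL hard to dissect. Because whole tubule pieces were lysed, a lower value may stand for fewer cells of a type or for less RNA per cell, and these cannot be told apart here. Values in each group follow the order of the replicate numbers, which are 1, 3, 8, 10 and 22 for WT CTAL, 2, 4, 7, 9 and 21 for cKO CTAL, 11, 13, 15, 17 and 19 for WT MTAL, and 16, 18 and 20 for cKO MTAL.

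The pools held 10824299 to 62339939 counts. *Cldn10*, the targeted gene, stood at 384 to 579 CPM (counts scaled to a common normalized library size) in WT CTAL, 653 to 810.3 in WT MTAL, 156 to 185 in cKO CTAL and 151 to 295 in cKO MTAL. WT CTAL replicate 1 has a genotype label that goes against its pool name, which is WT; its *Cldn10* count lay within the range of the other WT CTAL pools. The summed TPM of 8 markers of the thick ascending limb was 34085 to 38815 in WT CTAL, 35806 to 43430 in cKO CTAL, 20379 to 24452 in WT MTAL and 31841 to 38330 in cKO MTAL, so that WT MTAL lay below every other group. *Xist*, the transcript of the inactive X chromosome, stood at 6.496 to 8.77 CPM in 7 pools although the mice are stated to be male, and at 0.233 to 0.738 CPM in the other 11. These 7 pools are replicates 3 and 22 of WT CTAL, replicate 2 of cKO CTAL and replicates 11, 15, 17 and 19 of WT MTAL. None of them is in cKO MTAL, so that *Xist* and genotype are partly confounded in MTAL. *Ddx3y*, a gene of the Y chromosome, stood at 23.6 to 38.7 CPM in all 18 pools. Values are therefore also given without the 7 pools or with a term for them.

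Collagens are extracellular proteins made of 3 chains wound into a triple helix. Type 4 collagen forms the sheet-like network of basement membranes, in which the chains assemble as α1α1α2, α3α4α5 or α5α5α6. The fibrillar collagens form the banded fibres of the interstitium, with types 1, 3 and 5 often in the same fibre. The other types decorate fibrils, form beaded filaments or short networks, span the plasma membrane, or, as the multiplexins *Col15a1* and *Col18a1*, carry glycosaminoglycan chains in basement membranes. In the kidney, tubule epithelium is known to make much of its own basement membrane, and fibroblasts and pericytes are known as the main source of fibrillar collagen.

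The 6 type 4 genes lie in 3 pairs whose starts face away from each other, in the annotation of GRCm38 (mm10). *Col4a1* (chr8:11198423-11312826, minus strand) and *Col4a2* (chr8:11312805-11449287, plus strand) start 21 bases apart and share 22 bases at their 5′ ends. *Col4a3* (chr1:82586921-82722059, plus strand) and *Col4a4* (chr1:82448423-82586849, minus strand) start 72 bases apart. *Col4a5* (chrX:141475385-141689234, plus strand) and *Col4a6* (chrX:141165403-141474076, minus strand) start 1309 bases apart on the X chromosome. The promoter windows below run from 250 bases before to 50 bases after the RefSeq start (GRCm38.p6) and are printed because the count ratio within the first pairs varied little between pools and that within the third varied widely (values follow). Capitals mark matches to CCAAT and GGGCGG on either strand (ATTGG and CCGCCC when read on the other). TATAAA was also searched on both strands and was in none of the 5 windows, and no matches overlap. CCAAT was in 37.4% of 32851 promoter windows of the same length, GGGCGG in 35.7% and TATAAA in 13.6%. The window of *Col4a4* also spans the start of *Col4a3*, and the windows of *Col4a1* and *Col4a2* overlap on opposite strands.
Col4a1 (chr8:11312777-11313076, minus strand): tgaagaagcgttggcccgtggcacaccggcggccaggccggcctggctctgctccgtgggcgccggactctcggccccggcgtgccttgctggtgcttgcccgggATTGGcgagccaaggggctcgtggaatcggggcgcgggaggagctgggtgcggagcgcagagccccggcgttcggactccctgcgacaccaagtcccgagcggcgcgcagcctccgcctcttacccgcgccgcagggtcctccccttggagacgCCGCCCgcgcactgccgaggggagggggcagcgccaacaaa
Col4a2 (chr8:11312555-11312854, plus strand): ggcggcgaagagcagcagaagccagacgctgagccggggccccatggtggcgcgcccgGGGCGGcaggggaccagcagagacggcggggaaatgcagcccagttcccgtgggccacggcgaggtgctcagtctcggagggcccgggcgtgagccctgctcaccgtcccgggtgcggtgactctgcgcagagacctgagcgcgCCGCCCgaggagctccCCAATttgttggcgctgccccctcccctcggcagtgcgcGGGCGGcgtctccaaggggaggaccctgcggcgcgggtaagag
Col4a4 (chr1:82586800-82587099, minus strand): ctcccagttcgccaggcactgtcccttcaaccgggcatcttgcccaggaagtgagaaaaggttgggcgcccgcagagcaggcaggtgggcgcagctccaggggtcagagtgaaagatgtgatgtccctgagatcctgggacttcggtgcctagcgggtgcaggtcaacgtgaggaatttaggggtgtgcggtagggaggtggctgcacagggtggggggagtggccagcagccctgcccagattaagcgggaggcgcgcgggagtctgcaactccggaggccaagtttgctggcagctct
Col4a5 (chrX:141475169-141475468, plus strand): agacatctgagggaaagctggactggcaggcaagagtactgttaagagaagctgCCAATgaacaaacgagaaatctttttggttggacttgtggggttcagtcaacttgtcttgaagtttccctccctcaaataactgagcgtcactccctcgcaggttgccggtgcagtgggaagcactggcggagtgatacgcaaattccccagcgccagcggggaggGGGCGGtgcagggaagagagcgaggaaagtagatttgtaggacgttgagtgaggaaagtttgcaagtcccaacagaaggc
Col4a6 (chrX:141474027-141474326, minus strand): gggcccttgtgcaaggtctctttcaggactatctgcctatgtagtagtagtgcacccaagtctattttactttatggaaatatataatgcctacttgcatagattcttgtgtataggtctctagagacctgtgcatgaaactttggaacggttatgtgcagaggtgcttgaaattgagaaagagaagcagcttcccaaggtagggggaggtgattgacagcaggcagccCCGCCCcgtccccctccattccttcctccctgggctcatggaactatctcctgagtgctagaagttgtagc
The windows of *Col4a1* and *Col4a2* hold CCAAT once each and GGGCGG 1 and 3 times. That of *Col4a4* holds none of the 3 motifs. That of *Col4a5* holds each of CCAAT and GGGCGG once, and that of *Col4a6* holds GGGCGG once. Their GC content was 74% for *Col4a1*, 73.7% for *Col4a2*, 63.3% for *Col4a4*, 52.7% for *Col4a5* and 48.3% for *Col4a6*, against a median of 52.7% over all windows.

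Levels between genes were compared in TPM, read counts divided by transcript length that have the same total in each pool. 7 collagen genes had a median above 5 TPM over the 18 pools: *Col4a4* (48.2), *Col4a3* (38.0), *Col18a1* (35.3), *Col4a1* (33.7), *Col5a2* (29.2), *Col4a2* (18.1) and *Col4a5* (11.4). These 7 made up 84.9% to 94.4% of the summed collagen TPM of a pool. 4 more had medians between 1 and 5 TPM, namely *Col1a1* (2.72), *Col15a1* (2.62), *Col12a1* (2.26) and *Col6a3* (2.01). The other 33 were under 1 TPM, and 16 of them never exceeded 1 TPM in any pool. 8 genes had no read in at least 9 pools. The most abundant fibrillar gene was thus *Col5a2*, which encodes a minor chain of type 5 collagen, while *Col1a1*, a chain of the main interstitial collagen, had a median of 2.72 TPM.

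**Figure D1:**
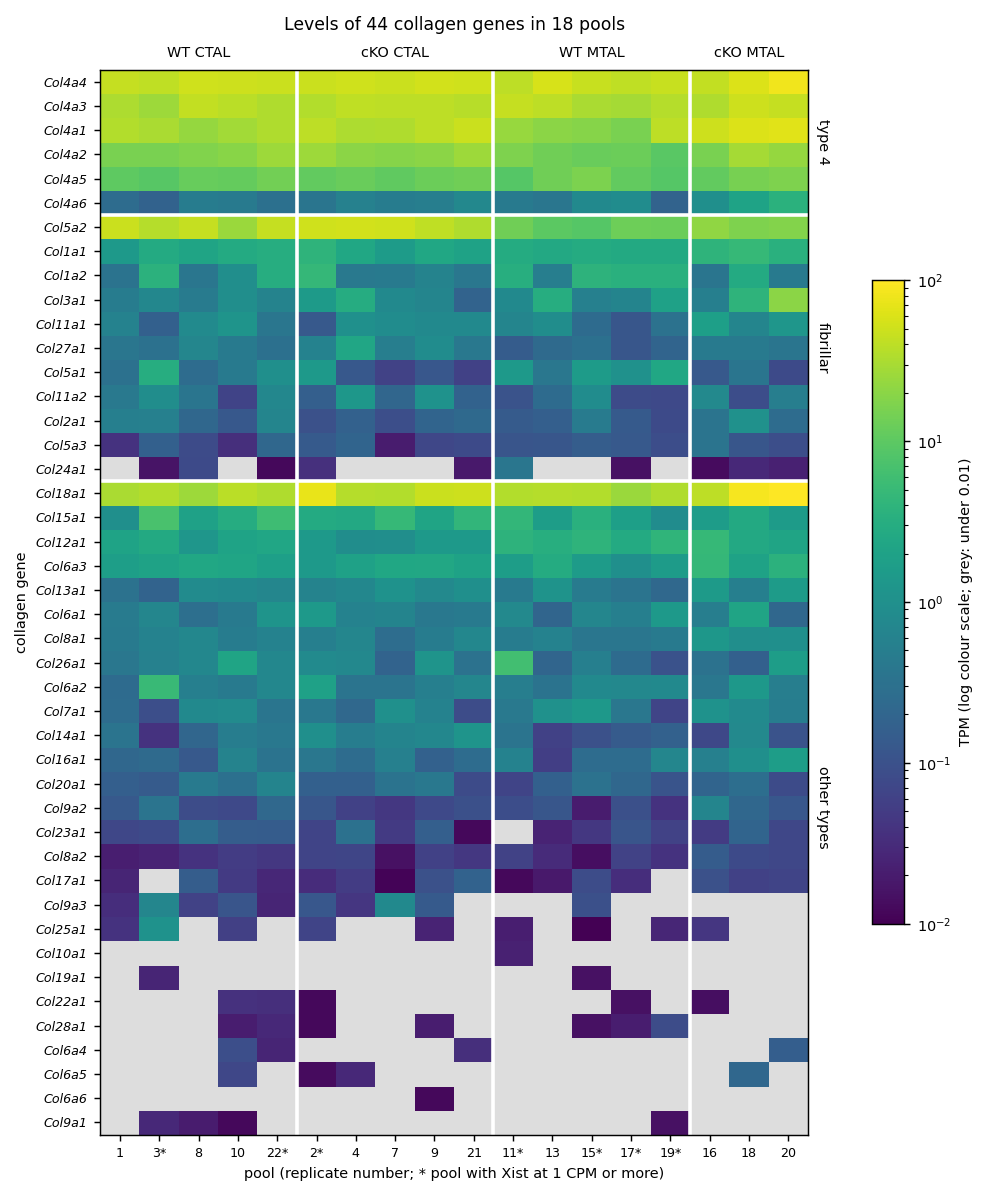
TPM of the 44 collagen genes (rows, grouped by class and ordered by median) in the 18 pools (columns, by group and replicate number), on a logarithmic colour scale. *Col4a4*, *Col4a3*, *Col4a1*, *Col18a1* and *Col5a2* are the brightest rows, *Col5a2* is darker in all 8 MTAL pools, and *Col1a2* and *Col5a1* are brighter in the 7 pools marked with an asterisk, which contain *Xist*.

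The summed TPM of the type 4 genes was 124 to 156 in WT CTAL, 152 to 177 in cKO CTAL, 110.4 to 145 in WT MTAL and 155 to 236 in cKO MTAL. The cKO MTAL pools lay above all WT MTAL pools. The sum of the fibrillar genes was 32.2 to 54.8 in WT CTAL, 37.4 to 63.9 in cKO CTAL, 17.98 to 23.7 in WT MTAL and 30.9 to 44.6 in cKO MTAL. It was lower in every WT MTAL pool than in any CTAL pool. *Col5a2* was its largest part in every pool but cKO MTAL replicate 20, where *Col3a1* stood at 20.1 TPM and *Col5a2* at 17.9 TPM. The sum of the other types was 37.02 to 56.3, 46.1 to 86.7, 34.2 to 54.8 and 58.5 to 112 TPM in the same order, and *Col18a1* made up most of it.

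Testing required 3 CPM in 5 or more of the pools compared (3 or more if cKO MTAL was among them). For this filter, CPM were taken on the total counts of a pool, before normalization. A gene was called when its adjusted p was under 0.05 (edgeR's quasi-likelihood test, Benjamini-Hochberg) and its level differed by a log2 value of 1 or more. In all, 20 collagen genes (6 of type 4, 7 fibrillar and 7 of other types) were tested in some comparison and 24 in none. The latter never exceeded 5.86 CPM. A gene that reached the minimum only through the group in which it was high had to differ, so that counts over tested genes are a description. Between cKO MTAL and WT MTAL, 17 of the 44 collagen genes were tested and 0 were called, against 3.74% of all genes tested. 12 of the 17 had an unadjusted p under 0.05, compared with 2847 of 12060 genes. The DESeq2 likelihood ratio test called 2 and limma on log2(TPM + 1) called 1. At the adjusted p alone, 4 of 17 passed, all higher in cKO MTAL (*Col18a1*, *Col4a1*, *Col4a2* and *Col5a2*), where 7.01% of all genes passed, 4.44% as higher. The median log2 fold change was 0.48 over the 6 type 4 genes, 0.49 over the 6 fibrillar genes and 0.88 over the 5 genes of other types that were tested, beside 0.00 over all genes tested. *Col8a1* (other types) reached the minimum in cKO MTAL alone and *Col5a1* (fibrillar) in WT MTAL alone; without them the medians were 0.22 over 4 genes of other types and 0.61 over 5 fibrillar genes. Between cKO CTAL and WT CTAL, 0 of 12 were called, against 0.47% of all genes. 3 of the 12 had an unadjusted p under 0.05, and DESeq2 and limma called 0 as well. None of the 12 passed the adjusted p alone (1.22% of all genes), and for none were the groups separate (3.09%). Their median was -0.01, beside 0.00 over all genes.

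Between the segments in WT mice, 1 of 13 was called (*Col5a2*, lower in MTAL), against 2.32% of all genes. *Col12a1* passed the adjusted p alone, as 6.87% of all genes did with or without the fold. *Col5a2* was the 1 collagen gene whose groups did not overlap (4.31% of all genes were so separated and lower in MTAL). Between the segments in cKO mice, 2 of 16 were called (*Col5a2*, lower in MTAL, and *Col4a6*, higher in MTAL), against 0.938% of all genes, and 1.75% passed the adjusted p. Of the 14 that did not reach the minimum through 1 group alone, *Col4a6* was separate and higher in cKO MTAL (4.15% of all genes), and *Col5a2* and *Col15a1* were separate and lower (5.98%). Both comparisons of MTAL share their pools with the genotype comparison in MTAL, so that their values are not independent. The difference between the genotype effects in MTAL and in CTAL was called for 0 of 20 genes in 1 fit of all 18 pools, against 0.23% of all genes; 2 had an unadjusted p under 0.05 (*Col6a3* and *Col8a1*), and DESeq2 and limma called 0.

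**Figure D2:**
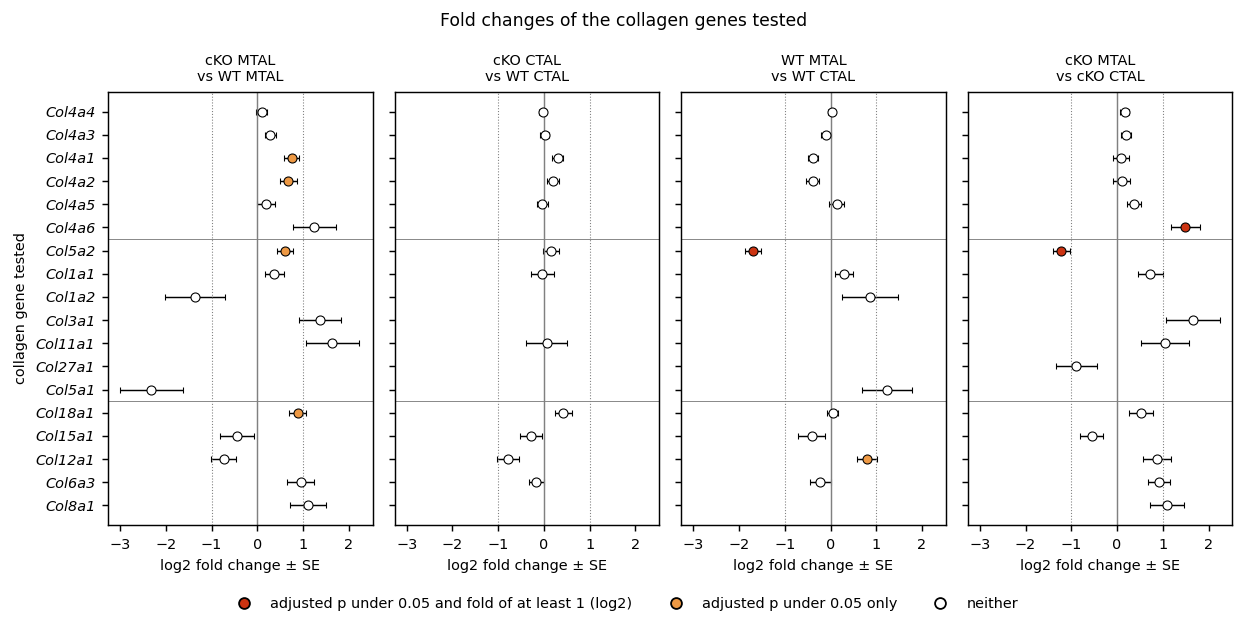
Log2 fold change with its standard error (horizontal axis) of each collagen gene tested (rows) in the 4 comparisons of groups, the first group against the second. Called genes are red, genes that passed the adjusted p alone are orange and the rest are white; *Col5a2* (-1.69 and -1.22) and *Col4a6* (1.49) are the called genes, all between segments.

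*Col4a1* and *Col4a2* encode the α1 and α2 chains found in all basement membranes. *Col4a1* stood at 84.2, 68.3, 79.3, 73.8 and 89.8 CPM in WT MTAL and at 91.6, 162 and 143 CPM in cKO MTAL. *Col4a2* stood at 101, 71.4, 69.6, 68.8 and 56.8 CPM in WT MTAL and at 83.9, 140.01 and 126 CPM in cKO MTAL. For *Col4a1* the groups did not overlap, although cKO MTAL replicate 16 lay close to the highest WT MTAL pool, whereas for *Col4a2* that replicate lay within the WT range. Of the 15 collagen genes that did not reach the minimum through 1 of the 2 groups alone, 4 were separate and higher in cKO MTAL (*Col18a1*, *Col4a1*, *Col5a2* and *Col1a1*). Over all genes tested the share was 6.79%, which includes genes that the filter selected. *Col4a1* was higher in cKO MTAL (edgeR, log2 fold change 0.75, SE 0.16, adjusted p = 0.010001). *Col4a2* was higher as well (edgeR, log2 fold change 0.68, SE 0.18, adjusted p = 0.03505). Neither reached the fold threshold. When each pool was left out in turn, *Col4a1* passed in all 8 fits (adjusted p = 0.000587 to 0.0456), while *Col4a2* did not pass without cKO MTAL replicate 18 or 20 or without WT MTAL replicate 13, 15, 17 or 19 (adjusted p up to 0.119). With a term for *Xist* in a fit of all 18 pools, the log2 fold changes were 1.0004 for *Col4a1* (adjusted p = 0.0006195) and 0.82 for *Col4a2* (adjusted p = 0.0196).

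In CTAL, *Col4a1* stood at 86.8, 106, 91.02, 100.2 and 127 CPM in WT and at 154, 107, 124, 109 and 140.5 CPM in cKO pools. *Col4a2* stood at 81.3, 93.1, 93.1, 98.7 and 116 CPM in WT CTAL and at 130.4, 101, 99.8, 86.1 and 142 CPM in cKO CTAL. The genotypes overlapped for both genes, with cKO replicates 2 and 21 at the top. Neither passed (edgeR, *Col4a1*: log2 fold change 0.3002, SE 0.12, adjusted p = 0.317; *Col4a2*: log2 fold change 0.202, SE 0.13, adjusted p = 0.5996). The difference between the 2 genotype effects was 0.43 on the log2 scale for *Col4a1* (SE 0.21, adjusted p = 0.343) and 0.46 for *Col4a2* (SE 0.24, adjusted p = 0.379), so that a larger effect in MTAL than in CTAL was not shown. Between the WT segments *Col4a1* was lower in MTAL by a log2 difference of -0.37 (SE 0.11) and missed the threshold (edgeR, adjusted p = 0.0523).

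The ratio of *Col4a1* to *Col4a2* CPM, which compares pools and not the genes, since CPM are not corrected for length, stayed between 0.836 and 1.58 in the 18 pools. On the TPM scale it ran from 1.24 to 4.21, since a *Col4a1* TPM stood for 1.83 to 4.67 CPM depending on the pool. Within cKO MTAL and in WT MTAL replicate 19, *Col4a1* TPM was high for its counts: it was 50.1, 60.8 and 65.8 TPM in cKO MTAL and 24, 19.97, 18.8, 15.8 and 39.98 TPM in WT MTAL. On log2(TPM + 1), the fold change between cKO MTAL and WT MTAL was 1.34 for *Col4a1* (limma, adjusted p = 0.0261) and 0.73 for *Col4a2* (adjusted p = 0.139). The TPM values use the length of the transcripts assigned by the authors' software in each pool, and which transcripts these were was not analysed here.

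*Col4a3* and *Col4a4*, which encode chains of the α3α4α5 network, had the highest median TPM over all 18 pools and varied little in CPM. In cKO MTAL the order differed, with median TPM of 86.7 for *Col18a1*, 61.7 for *Col4a4*, 60.8 for *Col4a1* and 44.3 for *Col4a3*. *Col4a4* stood at 347, 346, 412, 364 and 385 CPM in WT CTAL and 359.9, 364, 371, 353 and 381 CPM in cKO CTAL. It stood at 347, 408, 366, 362 and 402 CPM in WT MTAL and 339, 437 and 426 CPM in cKO MTAL. All 18 pools thus fell within 339 to 437 CPM, and every pair of groups overlapped. Its log2 fold change was 0.09 (SE 0.12) between genotypes in MTAL, -0.03 (SE 0.07) between genotypes in CTAL and 0.02 (SE 0.08) between WT segments, with adjusted p of 0.671, 0.915 and 0.913 (edgeR). *Col4a3* stood at 218, 187, 287, 248 and 230.2 CPM in WT CTAL and 227, 249, 265, 219 and 233 CPM in cKO CTAL. It stood at 197, 249, 213, 216 and 219.99 CPM in WT MTAL and 222, 307 and 269 CPM in cKO MTAL. The groups overlapped, with cKO MTAL replicates 18 and 20 among the highest 3 pools. The largest fold change of *Col4a3* was that between genotypes in MTAL (edgeR, log2 fold change 0.29, SE 0.12, adjusted p = 0.171), and it did not pass. The ratio of *Col4a4* to *Col4a3* CPM stayed between 1.402 and 1.85 in the 18 pools. In TPM the ratio ran from 0.903 to 1.84 and *Col4a4* from 39.8 to 81.4, so that the narrow range held for CPM only.

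*Col4a5* encodes the third chain of that network. It stood at 47.1, 38.5, 47.6, 47.2 and 63.1 CPM in WT CTAL and 46.9, 42.1, 44.8, 46.9 and 59.95 CPM in cKO CTAL. In MTAL it stood at 42.8, 58.4, 75.6, 50.3 and 40.1 CPM in WT and 48.01, 59.4 and 73.8 CPM in cKO pools. The 4 groups overlapped, and no comparison passed (edgeR, adjusted p = 0.248 for the smallest, between the cKO segments). *Col4a6*, its neighbour on the X chromosome, which encodes a chain of the α5α5α6 network, was far less abundant, with a median of 0.477 TPM against 11.4 TPM for *Col4a5*. *Col4a6* stood at 5.37, 7.55 and 9.59 CPM in cKO MTAL and at 1.92, 2.91, 2.64, 2.47 and 3.86 CPM in cKO CTAL. It stood at 2.599, 1.98, 4.53, 5.57 and 1.15 CPM in WT MTAL and at 1.44, 1.04, 2.71, 2.29 and 1.13 CPM in WT CTAL. The cKO MTAL pools lay above all cKO CTAL and WT CTAL pools, while 1 WT MTAL pool reached into their range.

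*Col4a6* was higher in cKO MTAL than in cKO CTAL (edgeR, log2 fold change 1.49, SE 0.32, adjusted p = 0.04003). On the scale of the filter, the minimum of 3 CPM was reached by all 3 pools of cKO MTAL and by 2 pools of cKO CTAL. When each pool was left out in turn, it did not pass without cKO CTAL replicate 2, 4, 7 or 9 or without cKO MTAL replicate 20 (adjusted p = 0.0312 to 0.123 over the 8 fits). It was 0.0708 without the pool that contains *Xist*, 0.0667 with a looser filter on low counts and 0.161 with limma on TPM. Between genotypes in MTAL, *Col4a6* did not pass (edgeR, log2 fold change 1.24, SE 0.47, adjusted p = 0.122). The ratio of *Col4a5* to *Col4a6* CPM was 7.70 to 8.95 in cKO MTAL, 9.03 to 34.8 in WT MTAL, 14.5 to 24.4 in cKO CTAL and 17.6 to 55.6 in WT CTAL. The summed TPM of 7 urothelial markers was 30.2 to 68.5 in cKO MTAL and 5.92 to 12.7, 5.56 to 10.6 and 4.94 to 9.93 in cKO CTAL, WT MTAL and WT CTAL. Most of it was *Psca*, at 24.8, 53.2 and 27.7 TPM in the 3 cKO MTAL pools and at most 5.9 TPM elsewhere. Of the 7 genes, 2 (*Psca* and *Upk3b*) were separate and higher in cKO MTAL than in cKO CTAL, beside 4.15% of all genes tested (in CPM). *Upk3b* stood at 0.653 to 6.61 TPM in cKO MTAL and 0.108 to 0.239 TPM in cKO CTAL. *Upk1a* stood at 1.88 to 4.68 TPM in cKO MTAL and 2.57 to 7.86 TPM in cKO CTAL. *Upk2* stood at 0 in 2 of the 3 cKO MTAL pools and at 0.731 TPM in replicate 18. Of all 18 pools, that replicate had the most *Upk1b* (1.37 TPM), *Upk2*, *Upk3a* (1.19 TPM), *Upk3b* and *Krt5* (0.753 TPM). Markers of the thin limb of Henle's loop stood at 357 to 416 TPM in sum in cKO MTAL, 359.96 to 529 in WT MTAL, 221 to 262 in cKO CTAL and 214 to 327 in WT CTAL. Of these 5 markers, 5 were separate and higher in cKO MTAL than in cKO CTAL, beside 4.15% of all genes tested (in CPM). The part of urothelial and thin limb cells in the result was not tested.

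**Figure D3:**
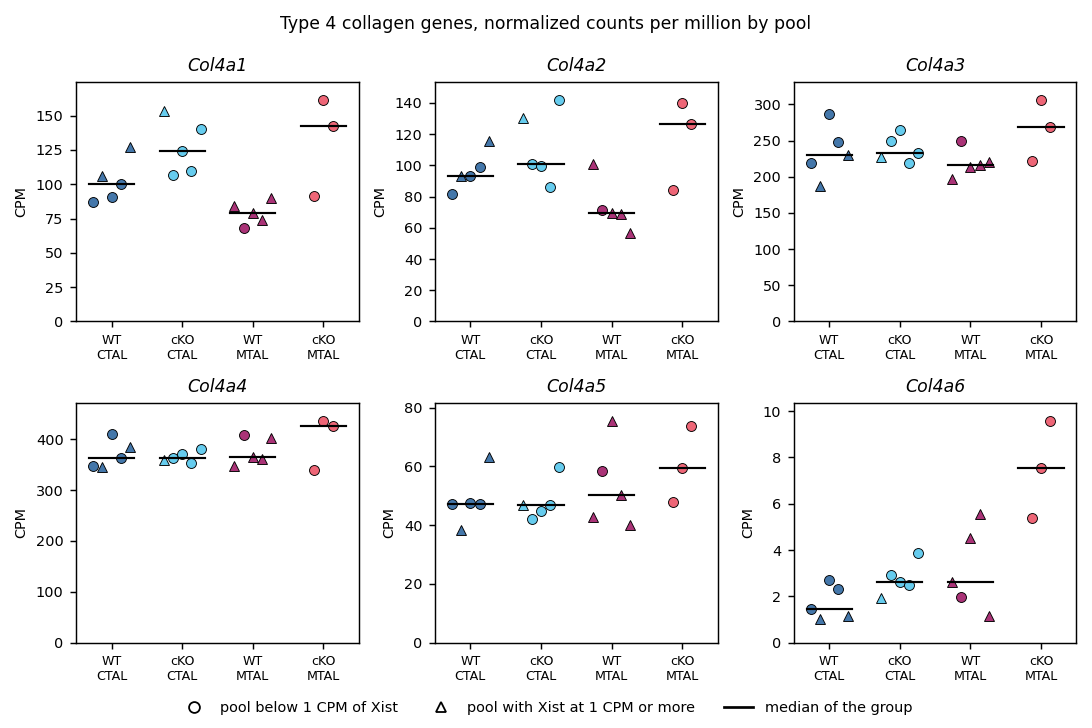
CPM on normalized library sizes (vertical axis, from 0) of the 6 type 4 genes in each pool of the 4 groups, with bars at the group medians and triangles for pools that contain *Xist*. *Col4a4* is flat at 339 to 437 CPM, *Col4a1* separates the MTAL genotypes, and the 3 cKO MTAL pools are the highest for *Col4a6* with 1 WT MTAL pool among them.

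Among the fibrillar genes, *Col5a2* set the segments apart. *Col5a2* (chr1:45374321-45503282, minus strand) encodes the α2 chain of type 5 collagen, a minor partner within type 1 fibres. It stood at 241, 192, 221, 121 and 155 CPM in WT CTAL and 64.2, 44.5, 46.5, 69.3 and 63.3 CPM in WT MTAL. It stood at 241, 222, 249, 169.7 and 158 CPM in cKO CTAL and 106, 76.8 and 78.5 CPM in cKO MTAL. Every CTAL pool lay above every MTAL pool, in both genotypes. *Col5a2* was lower in MTAL than in CTAL in WT mice (edgeR, log2 fold change -1.69, SE 0.17, adjusted p = 1.13e-05) and in cKO mice (edgeR, log2 fold change -1.22, SE 0.18, adjusted p = 0.00466). Both calls were made under all other alternatives run. Without the pool that contains *Xist*, the log2 fold change in cKO mice was -1.16 (adjusted p = 0.00826). In WT mice this left 1 MTAL pool, whose spread was assumed to be that of WT CTAL; the log2 fold change was then -2.13 (adjusted p = 0.0367), which is no check of stability.

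Between genotypes in MTAL, every cKO pool lay above every WT pool for *Col5a2* (edgeR, log2 fold change 0.61, SE 0.17, adjusted p = 0.0422). It passed the adjusted p alone. It did not pass without cKO MTAL replicate 16 or 20 or without WT MTAL replicate 11, 13, 15 or 19 (adjusted p up to 0.184, without cKO MTAL replicate 16). In CTAL the genotypes overlapped (edgeR, log2 fold change 0.15, SE 0.17, adjusted p = 0.8003). The difference between the genotype effects was 0.44 on the log2 scale (SE 0.27, adjusted p = 0.457). *Col5a2* and *Col3a1*, a fibrillar gene of the interstitium, lie tail to tail on chromosome 1 with 24614 bases between them, and *Col3a1* did not share its levels: it stood at 0.778 to 3.41 CPM in WT CTAL and 2.54 to 3.75 CPM in WT MTAL. The summed TPM of 12 markers of fibroblasts and pericytes overlapped between the WT segments, at 19.2 to 33.2 in WT CTAL and 16.3 to 22.2 in WT MTAL, with medians of 29.4 and 21.8. 1 of the 12, *Tagln*, a gene of contractile cells, was separate and lower in WT MTAL, like *Col5a2*, beside 4.31% of all genes tested (in CPM). It stood at 2.03 to 3.42 TPM in WT CTAL and 0.685 to 1.85 TPM in WT MTAL, and the part of such cells in the result was not tested. In cKO MTAL the same sum was 31.8 to 39.9, above all WT MTAL pools. Of the 12 genes, 2 (*Acta2* and *Dcn*) were separate and higher in cKO MTAL than in WT MTAL, beside 6.79% of all genes tested (in CPM). *Dcn*, which fibroblasts make in quantity, stood at 2.15 to 3.97 TPM in cKO MTAL and 0.69 to 1.44 TPM in WT MTAL, and *Pdgfra* at 0.256 to 1.29 and 0.298 to 1.497 TPM. *Lum*, a further fibroblast gene, was at most 0.269 TPM. The part of these cells in the higher *Col5a2*, *Col4a1* and *Col4a2* of cKO MTAL was not tested.

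*Col1a1* and *Col1a2* encode the α1 and α2 chains of type 1 collagen. *Col1a1* stood at 7.004, 14.3, 10.6, 10.2 and 14.9 CPM in WT CTAL and 18.6, 10.5, 7.46, 9.41 and 9.47 CPM in cKO CTAL. In MTAL it stood at 15.2, 12.2, 14.6, 13.6 and 14.4 CPM in WT and 17.9, 19.6 and 16.4 CPM in cKO pools. The cKO MTAL pools were above all WT MTAL pools, but the difference did not pass (edgeR, log2 fold change 0.37, SE 0.21, adjusted p = 0.3099). *Col1a2*, with *Col5a1* and *Col3a1*, falls outside the rule for genes given pool by pool and was chosen after its values were seen. *Col1a2* stood at 1.48, 16.2, 1.58, 3.88 and 13.3 CPM in WT CTAL, 18.7, 1.65, 1.93, 2.27 and 1.65 in cKO CTAL, 15.1, 2.19, 16.6, 14.9 and 15.7 in WT MTAL and 1.62, 11.4 and 1.78 in cKO MTAL. It was 13.3 to 18.7 CPM in the 7 pools that contain *Xist* and 1.48 to 3.88 CPM in 10 of the other 11; the exception was cKO MTAL replicate 18, at 11.4 CPM. The ratio of *Col1a1* to *Col1a2* CPM was 0.878 to 1.12 in the pools with *Xist* and 1.73 to 11.05 in the others.

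*Col5a1*, the other main chain of type 5 collagen, followed the same pools. It stood at 6.12, 1.09, 7.53, 4.71 and 8.47 CPM in WT MTAL and 0.441, 2.27 and 0.533 CPM in cKO MTAL. In CTAL it stood at 0.623, 5.46, 1.54, 1.11 and 3.505 CPM in WT and 5.4995, 0.781, 0.406, 0.651 and 0.401 CPM in cKO pools. It was tested between the MTAL genotypes only because 4 WT MTAL pools reached the minimum. The pools with *Xist* ran from 3.504 to 8.47 CPM and the others from 0.401 to 2.27. Between genotypes in MTAL the log2 fold change was -2.31 for *Col5a1* (SE 0.69, edgeR, adjusted p = 0.0537) and -1.36 for *Col1a2* (SE 0.65, adjusted p = 0.219). With a term for *Xist* in the fit these values became -0.01 (adjusted p = 0.995) and 1.25 (adjusted p = 0.134). Since 4 of 5 WT MTAL pools and 0 of 3 cKO MTAL pools contain *Xist*, genotype and *Xist* can hardly be told apart for these genes in MTAL.

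*Col3a1* stood at 2.35, 12.6 and 7.93 CPM in cKO MTAL and 3.75, 2.55, 2.54, 3.13 and 2.86 CPM in WT MTAL, so that replicates 18 and 20 lay above the WT pools and replicate 16 below them (edgeR, log2 fold change 1.37, SE 0.45, adjusted p = 0.0773). On the TPM scale replicates 16, 18 and 20 stood at 0.53, 4.01 and 20.1 TPM; the order of the latter 2 was thus opposite to that in CPM. *Col11a1*, which encodes a chain of type 11 collagen, stood at 3.41 to 10.4 CPM in cKO MTAL and 0.762 to 4.93 CPM in WT MTAL (edgeR, log2 fold change 1.64, SE 0.58, adjusted p = 0.0993). It was 0.728 to 2.77 CPM in the pools with *Xist* and 3.095 to 10.4 in the others, the reverse of *Col1a2*. With a term for *Xist* its log2 fold change was 0.47 (adjusted p = 0.615). *Col27a1* was tested in the fits of the cKO segments and of all pools and passed in neither. *Col2a1*, *Col5a3*, *Col11a2* and *Col24a1*, the 4 fibrillar genes not tested, never exceeded 3.27 CPM.

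**Figure D4:**
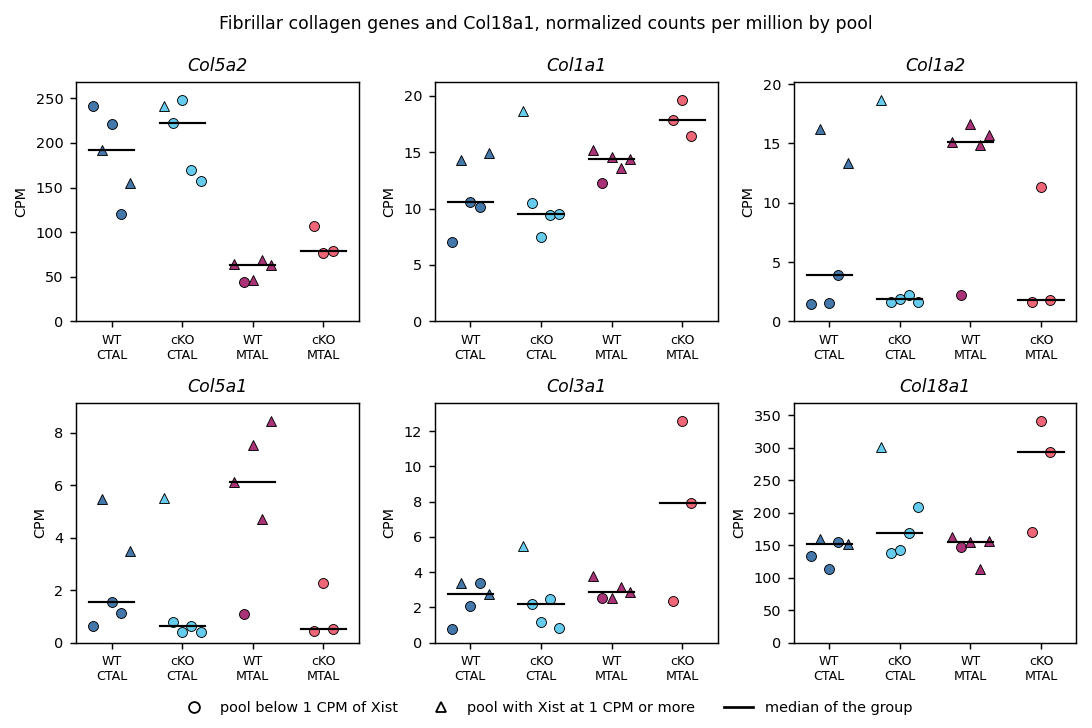
CPM on normalized library sizes (vertical axis, from 0) of 5 fibrillar genes and of *Col18a1* in each pool, with bars at the group medians and triangles for pools that contain *Xist*. *Col5a2* is higher in every CTAL pool than in any MTAL pool; *Col1a2* and *Col5a1* are high in the triangles, whatever their group, and *Col1a2* also in cKO MTAL replicate 18.

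**Figure D5:**
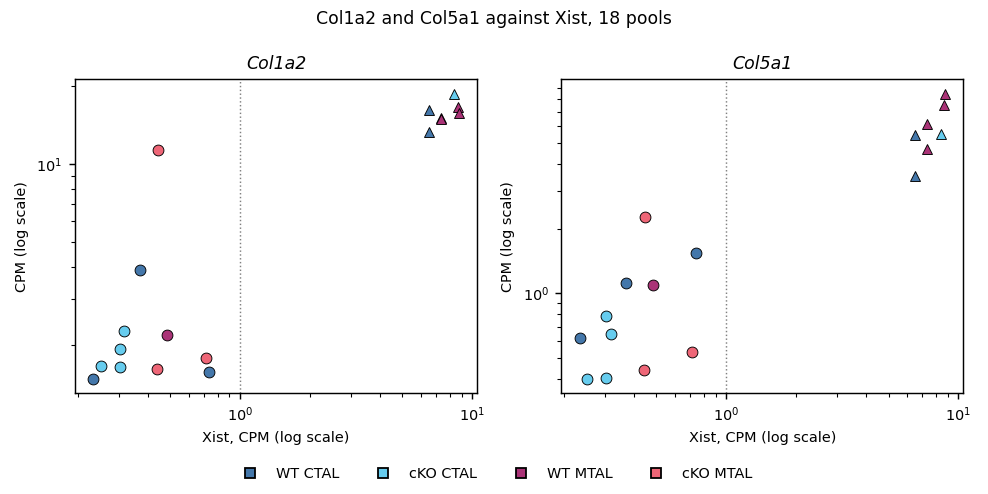
CPM of *Col1a2* (left) and *Col5a1* (right) against CPM of *Xist* in the 18 pools, on logarithmic axes, coloured by group; the dotted line marks 1 CPM of *Xist*. The 7 pools to the right of the line hold 13.3 to 18.7 CPM of *Col1a2* and 3.504 to 8.47 CPM of *Col5a1*, and cKO MTAL replicate 18 is the only pool to the left of it with *Col1a2* above 3.88 CPM.

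Among the other types, *Col18a1* was the most abundant. *Col18a1* (chr10:77052178-77166548, minus strand) encodes a multiplexin of basement membranes whose end fragment is endostatin. It stood at 163, 147, 155, 113 and 156 CPM in WT MTAL and 171, 342 and 294 CPM in cKO MTAL. It stood at 133, 159.8, 113, 154 and 152 CPM in WT CTAL and 302, 138, 142, 168 and 209 CPM in cKO CTAL. The cKO MTAL pools lay above all WT MTAL pools, 2 of them well above and replicate 16 closely, while in CTAL only cKO replicates 2, 9 and 21 exceeded the WT range. *Col18a1* was higher in cKO MTAL (edgeR, log2 fold change 0.88, SE 0.18, adjusted p = 0.00778), under the fold threshold. When single MTAL pools were left out, its adjusted p ran from 0.000185 to 0.0383 and its log2 fold change from 0.67 to 1.12. With a term for *Xist* the log2 fold change was 1.15 (adjusted p = 0.00328). In CTAL the difference did not pass (edgeR, log2 fold change 0.42, SE 0.18, adjusted p = 0.372), nor did the difference between the genotype effects (0.44, SE 0.29, adjusted p = 0.495). *Col18a1* overlaps *Slc19a1* and *Gm7775* on the opposite strand. The study made its libraries with a strand-specific kit. Whether the counting used the strand is not stated, and if it did not, reads of these genes could be shared. Markers of endothelium, another source of multiplexins, stood at 151 to 276 TPM in sum in cKO MTAL and 232 to 301 in WT MTAL, with 0 of 10 genes separate and higher and 3 separate and lower in cKO MTAL. Of all 12060 genes tested, 819 were separate and higher there and 923 separate and lower (in CPM). Genes of tubular injury stood at 2348 to 9715 and 946 to 1449.5 TPM, with 4 of 7 separate and higher, beside 6.79% of all genes. Of the 8 markers of the thick ascending limb, 5 were also separate and higher in cKO MTAL. The summed TPM of immune cell markers was 51.7 to 73.4 in cKO MTAL and 38.2 to 47.8 in WT MTAL. The 2 cKO MTAL pools with high *Col18a1* each stood apart in some markers. Replicate 18 had 9715 TPM of injury genes, against 2348 and 2536 in the other two. Its urothelial markers summed to 68.5 TPM, against 30.2 and 30.8. Replicate 20 stood apart in markers of other tubule segments. Its principal cell markers summed to 771 TPM, against 85.1 and 99.5 in the other two, its intercalated cell markers to 136 TPM, against 17.9 and 13.8, and its proximal tubule markers to 36.2 TPM, against 4.99 and 23.7. Without replicate 20, *Col18a1* passed at an adjusted p of 0.0383 (edgeR, log2 fold change 0.82). The part of these markers in the higher *Col18a1*, *Col4a1*, *Col4a2* and *Col5a2* of cKO MTAL was not tested otherwise. *Col15a1*, the second multiplexin, stood at 8.49, 6.89, 7.89, 8.28 and 3.31 CPM in WT MTAL and 5.07, 5.53 and 4.74 CPM in cKO MTAL. It stood at 4.202, 11.96, 8.43, 12.1 and 10.01 CPM in WT CTAL and 7.02, 9.89, 7.71, 7.61 and 6.27 CPM in cKO CTAL. *Col15a1* was thus within the WT range in cKO MTAL, and it passed in no comparison. The cKO MTAL pools lay below all cKO CTAL pools (edgeR, log2 fold change -0.55, SE 0.25, adjusted p = 0.279), a separation shown by 5.98% of all genes.

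*Col12a1*, which encodes a collagen on the surface of fibrils, stood at 36.2, 21.6, 26.6, 25.5 and 28.1 CPM in WT MTAL and 12.3, 24.3, 9.91, 15.4 and 18.1 CPM in WT CTAL. It stood at 23.2, 17.6 and 8.76 CPM in cKO MTAL and 11.7, 7.51, 6.65, 8.76 and 11.5 CPM in cKO CTAL. WT MTAL held the 4 highest pools, and 1 WT CTAL pool, replicate 3, reached into their range. *Col12a1* was higher in WT MTAL than in WT CTAL (edgeR, log2 fold change 0.801, SE 0.21, adjusted p = 0.0305), under the fold threshold. It did not pass without WT CTAL replicate 1, 8 or 10 or without WT MTAL replicate 11, 15 or 19 (adjusted p up to 0.0934). With a term for *Xist* the log2 fold change was 0.602 (adjusted p = 0.134). Between genotypes its log2 fold change was negative in both segments, without passing: -0.73 in MTAL (SE 0.27, edgeR, adjusted p = 0.115) and -0.79 in CTAL (SE 0.23, adjusted p = 0.145). *Col14a1*, of the same class, was too low to be tested. It stood at 3.56, 2.17, 3.095, 2.603 and 3.06 CPM in cKO CTAL and 1.25, 0.188, 0.935, 1.82 and 1.302 CPM in WT CTAL. Every cKO CTAL pool thus lay above every WT CTAL pool. Of the genes tested there, 1.85% were so separated, but *Col14a1* is not among them and that share does not cover genes so low. In MTAL it stood at 0.368, 2.62 and 0.296 CPM in cKO and 1.16, 0.253, 0.458, 0.722 and 1.002 CPM in WT pools.

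*Col6a1*, *Col6a2* and *Col6a3* encode the 3 main chains of type 6 collagen, which forms beaded filaments around cells. *Col6a3* stood at 11.9, 19.6, 11.6, 8.48 and 9.32 CPM in WT MTAL and 30.4, 13.8 and 26.1 CPM in cKO MTAL. It stood at 12.4, 10.2, 17.5, 16.4 and 14.7 CPM in WT CTAL and 9.93, 14.1, 12.9, 12.95 and 14.2 CPM in cKO CTAL. The cKO MTAL replicates 16 and 20 were the highest of all pools, and replicate 18 lay within the WT range. The difference between genotypes in MTAL did not pass (edgeR, log2 fold change 0.95, SE 0.303, adjusted p = 0.0695). That between the genotype effects was 1.097 (SE 0.35, adjusted p = 0.127); it was called without cKO MTAL replicate 18 (adjusted p = 0.01796) and without WT MTAL replicate 13. *Col6a1* had a median of 0.567 TPM against 2.01 TPM for *Col6a3*, and stood at 2.83, 0.653, 2.44, 1.98 and 5.51 CPM in WT MTAL and 1.76, 6.66 and 0.7104 CPM in cKO MTAL. In CTAL it stood at 1.56, 2.45, 1.02, 1.42 and 4.21 CPM in WT and 4.71, 1.87, 2.13, 1.17 and 1.45 CPM in cKO pools. *Col6a2* stood at 1.95 CPM in the median pool and at 18.1 CPM in WT CTAL replicate 3, where *Col6a1* (2.45 CPM) and *Col6a3* (10.2 CPM) were not raised with it; this gene was singled out after its values were seen.

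*Col8a1*, which encodes a short-chain collagen of vessel walls, stood at 4.78, 3.21 and 3.26 CPM in cKO MTAL and 1.91, 2.06, 1.42, 1.56 and 1.804 CPM in WT MTAL. In CTAL it stood at 1.595, 2.35, 2.64, 1.65 and 2.14 CPM in WT and 1.92, 2.26, 0.964, 1.48 and 2.41 CPM in cKO pools. The difference between the MTAL genotypes did not pass in the fit of the MTAL pools (edgeR, log2 fold change 1.098, SE 0.39, adjusted p = 0.102). In the fit of all 18 pools it did (1.09, adjusted p = 0.0348). *Col8a1* was tested only because the 3 cKO MTAL pools reached 3 CPM, as no pool of another group did, so that the filter itself set this separation and neither it nor the pass is evidence of a difference. *Col8a2* never exceeded 0.515 CPM. *Col13a1*, a membrane-spanning collagen, stood at 0.739, 0.471, 1.54, 1.05 and 0.968 CPM in WT CTAL, 1.13, 1.39, 2.49, 0.817 and 1.35 in cKO CTAL, 0.635, 1.58, 0.509, 0.601 and 0.551 in WT MTAL and 2.21, 1.09 and 1.89 in cKO MTAL. *Col23a1*, of the same class, was at most 1.26 CPM. *Col7a1*, the anchoring fibril collagen of skin, stood at 1.01, 0.753, 2.41, 1.59 and 2.94 CPM in WT CTAL, 1.15, 1.61, 3.095, 1.498 and 0.652 in cKO CTAL, 0.635, 3.12, 1.17, 1.52 and 0.551 in WT MTAL and 2.13, 1.63 and 1.24 in cKO MTAL, with all groups overlapping. *Col26a1* stood at 0.251 to 2.37 CPM and *Col28a1* at most at 0.100 CPM, with no read in 11 pools. For *Col26a1* the scales parted: in WT MTAL replicate 11 it had 6.23 TPM, the highest value of any pool, from 1.44 CPM. The remaining low genes had single high pools, such as *Col25a1* at 2.54 CPM in WT CTAL replicate 3 and *Col16a1* at 5.86 CPM in cKO MTAL replicate 20, which were singled out after their values were seen.

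The genes that modify, export, cleave, cross-link, degrade and bind collagen were examined as 7 lists. Of 14 prolyl and lysyl modification genes tested in MTAL, 0 were called between genotypes and 1 passed the adjusted p, a share like the 7.01% of all genes that passed. This gene was *Ppib*, a prolyl isomerase of the endoplasmic reticulum (edgeR, log2 fold change 0.39, SE 0.105, adjusted p = 0.0335). Of 7 folding and export genes, *Serpinh1*, the collagen chaperone HSP47, passed the adjusted p (log2 fold change 0.52, SE 0.13, adjusted p = 0.0293). Of 6 degradation genes, 2 were called and both were higher in cKO MTAL (3.74% of all genes were called). *Mmp14*, a membrane-bound collagenase, stood at 33.7, 36.5 and 43.5 CPM in cKO MTAL and 10.5, 19.2, 16.3, 19.6 and 14.1 CPM in WT MTAL, without overlap (edgeR, log2 fold change 1.25, SE 0.21, adjusted p = 0.00245). *Mmp24*, a further membrane-type protease, stood at 30.4, 12.6 and 23.6 CPM in cKO MTAL and 2.95, 16.97, 3.61, 2.71 and 3.36 CPM in WT MTAL (edgeR, log2 fold change 1.89, SE 0.53, adjusted p = 0.0406). The 4 WT MTAL pools with low *Mmp24* are those that contain *Xist*; the fifth lay within the cKO range. Of 4 collagen receptors, *Ddr1* (log2 fold change 0.56, SE 0.11, adjusted p = 0.004801) and *Itga1* (log2 fold change 0.52, SE 0.14, adjusted p = 0.0335) passed the adjusted p. No gene of the 2 propeptide cleavage, 3 cross-linking and 7 basement membrane partner genes passed; 1, 1 and 2 of them had an unadjusted p under 0.05. Between cKO CTAL and WT CTAL, edgeR called 0 genes of the 7 lists and 0 passed the adjusted p, with 1 or 2 of each list except cross-linking under an unadjusted p of 0.05.

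Between the WT segments, *Nid2*, a linker of type 4 collagen and laminin, was the 1 gene called of 7 basement membrane partners (2.32% of all genes were called and 6.87% passed the adjusted p). It stood at 4.68, 3.56, 7.84, 5.63 and 3.41 CPM in MTAL and 12.5, 11.5, 9.25, 10.3 and 11.3 CPM in CTAL, without overlap (edgeR, log2 fold change -1.13, SE 0.24, adjusted p = 0.007698). *Hspg2*, the proteoglycan perlecan, was higher in MTAL (log2 fold change 0.58, SE 0.14, adjusted p = 0.0158). *Ppib*, *Serpinh1*, *Mmp14*, *Ddr1* and *Itga1* passed the adjusted p as lower in WT MTAL, while *Plod2*, a lysyl hydroxylase, and *Timp2*, an inhibitor of metalloproteases, passed as higher. Between the cKO segments *Timp2* was called, at 32.8, 23.7 and 27.3 CPM in MTAL and 17.7, 12.3, 10.2, 10.3 and 9.57 CPM in CTAL (edgeR, log2 fold change 1.25, SE 0.22, adjusted p = 0.0127), and *Hspg2* passed as higher in MTAL (log2 fold change 0.66, SE 0.12, adjusted p = 0.0184). The lists were fixed with earlier results of these data known.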

How the data were processed

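RNA was measured in 18 pools of microdissected thick ascending limb. The authors trimmed the reads with fastp (the submitters' processing notes name Trimmomatic, FastQC and Picard), aligned them to mm10 with DRAGEN and a gencode annotation, and deposited estimated counts and TPM per gene. Strand use in counting and the lengths behind TPM are not given in the sources used here.

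Counts were rounded and tested with edgeR (version 4.0.16, R 4.3.3) quasi-likelihood F-tests on TMM-normalized libraries of 10824299 to 62339939 counts. Genes with at least 3 CPM in 5 pools (3 where cKO MTAL took part) were kept, p-values were adjusted over all genes kept (Benjamini-Hochberg), and a call was an adjusted p under 0.05 with an absolute log2 difference of 1 or more. Each comparison was fitted on its groups, and the difference of genotype effects on all 18 pools. SE is the fold change over the root of F. The scripts were tested on simulated data. Low genes rest on few reads, and their CPM are less precise.

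Alternatives were DESeq2 (1.42.0) size factors or likelihood ratio test, limma (3.58.1) on log2(TPM + 1), genes with at least 10 reads kept, a shared fit with and without an *Xist* term (pools at 1 CPM or more), another label for WT CTAL replicate 1, and each pool left out; leaving out the pools with *Xist* was added after the data were seen. Given pool by pool were called genes, the 6 type 4 genes and the 2 most abundant of each class, except for *Col8a2*, *Col23a1*, *Col26a1* and *Col28a1*, which are given by range. Of the modification, export and receptor lists, called genes were to be named; those past the adjusted p alone were added. Members and lists were chosen with earlier results of these data known. Promoters were matched by symbol for 35 of 44 genes.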

Additional observations from a re-analysis of the deposited data

Results flagged for a closer look

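In groups of 5 pools, 4 single pools lay apart from the rest by Dixon's test. These came from 63 groups tested over 21 collagen genes, and chance gives about 1 in 20. *Col1a1* stood at 18.6 CPM in cKO CTAL replicate 2, where the next pool was at 10.5 CPM, and *Col6a1*, a chain of type 6 collagen, at 4.71 CPM in the same pool, where the next was at 2.13 CPM. This is the cKO CTAL pool that contains *Xist*. *Col4a5* stood at 60.0 CPM in cKO CTAL replicate 21, against 46.9 CPM in the next pool. *Col13a1* stood at 1.58 CPM in WT MTAL replicate 13, against 0.635 CPM in the next, and this is the WT MTAL pool without *Xist*.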

How the results depend on the processing

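Between cKO MTAL and WT MTAL, the count of collagen genes called was 0, but 2 with the DESeq2 likelihood ratio test (*Col3a1* and *Col5a1*), 1 with limma on TPM (*Col4a1*), 1 in the fit of all 18 pools (*Col8a1*) and 3 with a term for *Xist* in it (*Col18a1*, *Col3a1* and *Col4a1*). It was 0 to 3 when each pool was left out, with 3 without cKO MTAL replicate 16 (*Col12a1*, *Col18a1*, *Col3a1*), without cKO MTAL replicate 18 (*Col1a2*, *Col5a1*, *Col6a3*) or without WT MTAL replicate 13 (*Col11a1*, *Col5a1*, *Col6a3*). Between the cKO segments the count was 2, but 1 (*Col5a2*) with genes of low counts kept, with limma on TPM, in the fit of all 18 pools and without the pool that contains *Xist*, and 1 to 3 when each pool was left out. For the difference of genotype effects it was 0, and 0 to 1 when each pool was left out (*Col6a3*, without cKO MTAL replicate 18 or WT MTAL replicate 13). The cause of these changes was not tested, except that leaving out pools gives fewer samples. Between cKO CTAL and WT CTAL it was 0, and between the WT segments 1 (*Col5a2*), under all alternatives run, WT CTAL replicate 1 counted as cKO or left out included. For the 12 log2 fold changes of genes that passed the adjusted p or were called under an alternative other than leaving out single pools, 177 alternative values were obtained, of which 125 kept their direction and side of the adjusted p threshold, 44 lost it, 8 gained it and 0 changed sign. Over all collagen genes tested, 64 of 1429 alternative values had the opposite sign, among them *Col1a2* between the MTAL genotypes (-1.36, and 1.255 with a term for *Xist*) and the difference of genotype effects of *Col5a1* (-1.75, and 0.53 with that term). No paired analysis was possible because the groups compared share no replicate numbers. The 3 cKO MTAL pools, the *Xist* split and low counts limit these comparisons.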
